A study of Homo sapiens with 6 samples.

Results

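The transcripts of 9 genes of the HLA class I antigen presentation pathway were compared between NOZ-R and NOZ. NOZ is a long-used line from a human gallbladder cancer, and NOZ-R is the gemcitabine resistant line derived from it by stepwise raising of the dose. The 9 genes were chosen by name, out of 63140 in the deposited count table, as HLA-B, HLA-C, HLA-E, HLA-F, B2M, NLRC5, TAP1, TAP2 and TAPBP. All 9 had enough counts to be among the 14386 genes tested. RNA-seq of poly-A RNA was done on 3 libraries of each line, with total counts between 14136037 and 19244923 per library. The labels give no other treatment, and they do not say whether the drug was present at harvest, whether NOZ-R is a single clone, or whether the libraries came from separate cultures. The p-values therefore measure only the spread between these libraries of a single resistant line and its parent, which may be technical. Other class I genes were not analysed here as members of the group.

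Class I molecules show fragments of a cell's own proteins to cytotoxic T cells and natural killer cells. Peptides cut by the proteasome are pumped into the endoplasmic reticulum by the transporter TAP, a dimer of the TAP1 and TAP2 proteins. There tapasin, the product of TAPBP, holds an empty class I molecule next to the pump until a peptide binds. The class I molecule itself pairs a heavy chain, encoded by an HLA gene, with the invariant light chain B2M. NLRC5 is a transactivator that assembles on the promoters of class I genes. Interferons and NF-kappaB are known inducers of the pathway in epithelial and other cells.

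The promoter windows of the members are shown because the genes lie at several loci but are known to share promoter elements for these inducers. RefSeq windows on GRCh38.p14, from 250 bases before to 50 after the start site and 300 bases in all, were matched for 7 of the 9 genes, HLA-B, HLA-C, HLA-F, B2M, TAP1, TAP2 and TAPBP. They are printed 5′ to 3′ on the strand of the gene for HLA-B (chr6:31357130-31357429, minus strand), HLA-F (chr6:29723184-29723483, plus strand), B2M (chr15:44711267-44711566, plus strand), TAP1 (chr6:32853655-32853954, minus strand), TAP2 (chr6:32838690-32838989, minus strand) and TAPBP (chr6:33314029-33314328, minus strand). Capitals mark matches, on either strand, to the interferon-stimulated response element (ISRE, GAAA on both sides of any 2 bases), to the core bound by interferon regulatory factors (AANNGAAA, which overlaps the ISRE) and to a kappaB site (GGG, any 2 bases, TT, any base, CC).
HLA-B: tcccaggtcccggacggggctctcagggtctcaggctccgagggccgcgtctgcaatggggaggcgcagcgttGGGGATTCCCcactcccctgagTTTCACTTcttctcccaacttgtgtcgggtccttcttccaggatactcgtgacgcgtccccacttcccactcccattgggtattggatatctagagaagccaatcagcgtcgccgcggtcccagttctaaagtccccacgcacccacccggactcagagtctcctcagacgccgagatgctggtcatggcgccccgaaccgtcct
HLA-F: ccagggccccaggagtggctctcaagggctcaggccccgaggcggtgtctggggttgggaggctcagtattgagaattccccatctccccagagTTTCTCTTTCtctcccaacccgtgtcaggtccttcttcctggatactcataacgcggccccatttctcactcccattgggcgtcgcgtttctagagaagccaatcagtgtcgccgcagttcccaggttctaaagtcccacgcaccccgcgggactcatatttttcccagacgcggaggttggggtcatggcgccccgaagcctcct
B2M: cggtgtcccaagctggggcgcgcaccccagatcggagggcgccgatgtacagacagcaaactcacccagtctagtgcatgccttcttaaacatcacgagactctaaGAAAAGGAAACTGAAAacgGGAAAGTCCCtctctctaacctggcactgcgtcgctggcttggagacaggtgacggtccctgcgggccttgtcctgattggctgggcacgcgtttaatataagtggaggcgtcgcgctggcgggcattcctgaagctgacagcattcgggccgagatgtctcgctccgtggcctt
TAP1: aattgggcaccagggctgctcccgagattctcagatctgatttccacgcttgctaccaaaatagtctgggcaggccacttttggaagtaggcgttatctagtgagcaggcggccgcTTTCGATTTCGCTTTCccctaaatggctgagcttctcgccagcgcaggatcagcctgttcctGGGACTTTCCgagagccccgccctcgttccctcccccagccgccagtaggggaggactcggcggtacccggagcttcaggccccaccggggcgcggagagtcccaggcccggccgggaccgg
TAP2: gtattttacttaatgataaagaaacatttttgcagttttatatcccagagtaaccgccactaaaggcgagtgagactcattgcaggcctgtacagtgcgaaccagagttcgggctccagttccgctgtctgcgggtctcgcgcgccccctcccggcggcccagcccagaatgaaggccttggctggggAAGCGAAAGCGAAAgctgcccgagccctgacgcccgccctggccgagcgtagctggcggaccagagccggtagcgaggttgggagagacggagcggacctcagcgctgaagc
TAPBP: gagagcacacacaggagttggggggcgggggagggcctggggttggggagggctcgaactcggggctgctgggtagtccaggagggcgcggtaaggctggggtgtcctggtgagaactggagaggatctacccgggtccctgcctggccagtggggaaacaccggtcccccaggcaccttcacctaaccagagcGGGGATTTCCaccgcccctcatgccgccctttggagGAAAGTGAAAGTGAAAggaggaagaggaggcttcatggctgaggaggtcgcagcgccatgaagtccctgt

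An ISRE match was present in HLA-F, B2M, TAP1, TAP2 and TAPBP, against 3.57% of 35116 RefSeq promoter windows of the same length. The shorter interferon regulatory factor core was found in all 7 genes, against 22.8% of windows. In B2M, TAP1 and TAPBP the window held 2 overlapping ISRE matches, at -144 to -129, -134 to -119 and -20 to -5 relative to the start site. HLA-B held the core alone, at -155 to -148, in the same part of the promoter as the ISRE match of HLA-F at -156 to -147. A kappaB match stood in HLA-B, B2M, TAP1 and TAPBP, against 5.68% of windows. The HLA-C window was 88.5% identical to that of HLA-B over their alignment and held the core but no kappaB match. The CCAAT box, a site for the factor NF-Y that cooperates with NLRC5, was matched in HLA-B, HLA-C, HLA-F, B2M and TAP1 (34.6% of windows). The cyclic AMP response core TGACG was matched in HLA-B, HLA-C, B2M and TAP2 (24.6% of windows). TAP1 has a further RefSeq start whose window held none of the 5 motifs. These matches describe letters in the reference and not binding in either line.

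**Figure D1:**
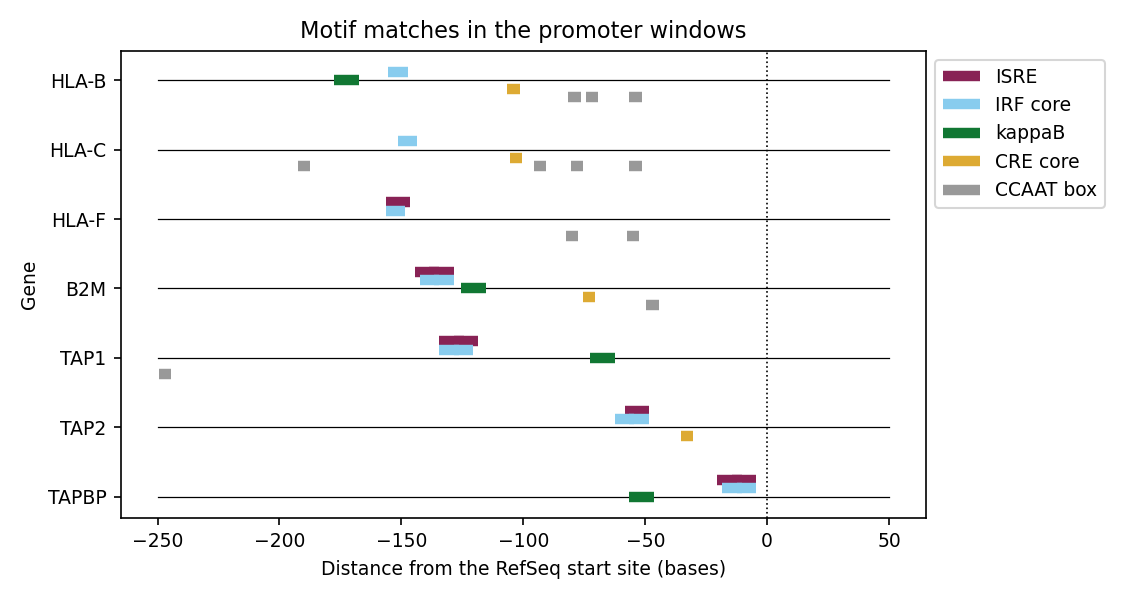
Motif matches in the promoter windows of the 7 genes with a RefSeq window, plotted by distance from the start site in bases, with colours for the 5 motifs. ISRE matches lie between -156 and -119 in HLA-F, B2M and TAP1 and closer to the start in TAP2 and TAPBP, while HLA-B and HLA-C carry the interferon regulatory factor core alone.

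All 9 genes were higher in NOZ-R by the quasi-likelihood test of edgeR, with p-values adjusted by Benjamini-Hochberg over all tested genes at 0.05. In the same comparison 60.2% of the tested genes were called in either direction and 30.4% were called higher. Of all calls 50.5% were higher with TMM scaling and 37.8% with library size alone, and all 9 members were higher under both. In each of the 9 the lowest NOZ-R library lay above the highest NOZ library, as it did for 32.9% of tested genes. The estimated rise was at least 2-fold for 8 members (8.96% of tested genes), and 6 passed a test against a 2-fold change itself (5.89% of tested genes). The median log2 fold change was 1.45, against -0.01 over all tested genes, with a range from 0.65 for B2M to 2.54 for TAP1.

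**Figure D2:**
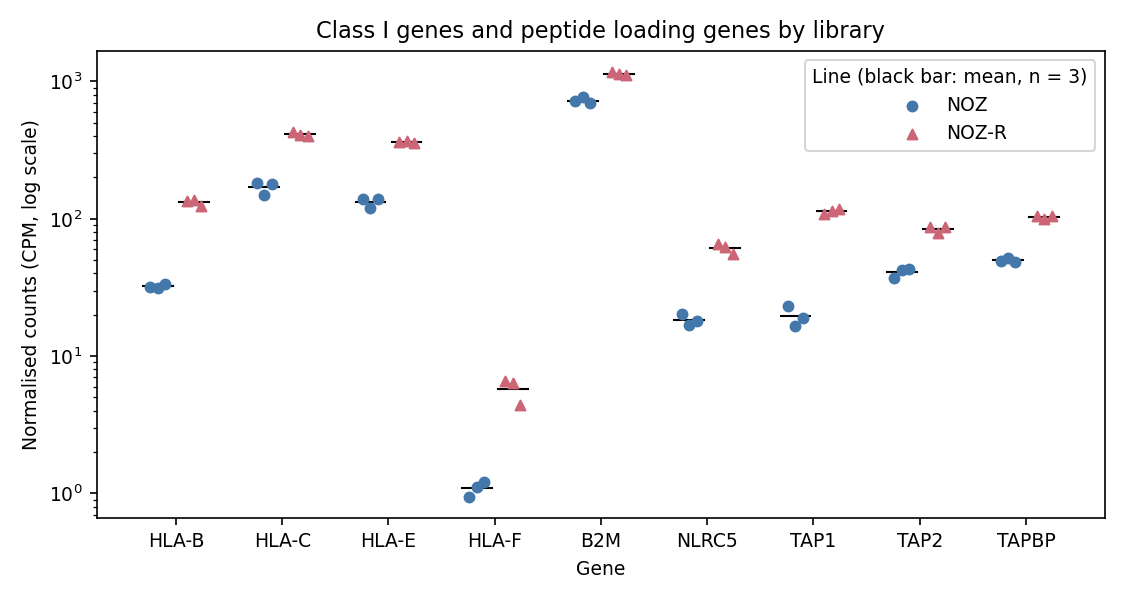
Normalised counts (CPM) of the 9 genes in each of the 3 NOZ (circles) and 3 NOZ-R (triangles) libraries on a log axis, with black bars at the means. In every gene all NOZ-R libraries lie above all NOZ libraries, and the gap is narrowest in B2M.

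Among the heavy chain genes, HLA-B rose most of the classical pair and HLA-C and HLA-E were the abundant transcripts. HLA-B (chromosome 6, RefSeq gene from 31353875 to 31357179), a classical heavy chain that presents peptides to T cells, measured 32.0, 31.1 and 33.4 CPM (counts scaled to the size of the library) in the 3 NOZ libraries and 135, 136 and 124 CPM in those of NOZ-R. The lines were far apart, the lowest NOZ-R library being 3.72 times the highest NOZ library. Its log2 fold change, NOZ-R over NOZ, was 2.04 with an SE of 0.0676 (adjusted p = 2.29e-11 by edgeR). HLA-C (chromosome 6, 31268749 to 31272092), the other classical gene here and the main ligand of killer cell immunoglobulin-like receptors, measured 184, 150.2 and 178 CPM in NOZ libraries and 429.7, 410.1 and 403 CPM in NOZ-R libraries. NOZ replicate 2 was the lowest library, and the groups did not overlap. HLA-C rose by 1.28 on that scale, with an SE of 0.0712 (adjusted p = 4.11e-09 by edgeR).

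The non-classical genes rose as well, from very different starting levels. HLA-E (chromosome 6, 30489509 to 30494194) displays leader peptides of other class I chains to the receptor pair CD94 and NKG2A on natural killer cells. It measured 139, 119.8 and 139 CPM across NOZ and 360.4, 369.9 and 356 CPM across NOZ-R. The log2 fold change was 1.45 with an SE of 0.0644 (adjusted p = 4.31e-10 by edgeR). The NOZ-R libraries lay close together, with an SD of 1.95% of their mean. HLA-F (chromosome 6, 29723434 to 29738532), a heavy chain found largely inside the cell, had 19, 20 and 18 counts in the NOZ libraries and 120, 103 and 66 in the NOZ-R libraries. These are 0.947, 1.11 and 1.22 CPM against 6.62, 6.37 and 4.42 CPM, with NOZ-R replicate 3 the lowest of its line. HLA-F rose by 2.43 in log2 units (adjusted p = 8.15e-07 by edgeR), and its SE of 0.230 was the largest of the 9 genes. On the log2(FPKM + 1) scale its value was 0.85, since the pseudocount exceeds its level in NOZ.

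B2M (chromosome 15, 44711517 to 44718145), the light chain shared by these heavy chains, had the smallest rise. Its levels were 715, 767 and 692 CPM in the parental libraries and 1173, 1131 and 1113 CPM in the resistant ones, so the lowest NOZ-R library was 1.45 times the highest NOZ library. The rise was 1.57-fold, or 0.65 in log2 units with an SE of 0.0510 (adjusted p = 1.24e-07 by edgeR). NOZ replicate 2 was the highest NOZ library for B2M and the lowest for HLA-B, HLA-C, HLA-E, NLRC5 and TAP1. It was also the highest for TAPBP and lay between the others for HLA-F and TAP2. In that library the deviations of all genes from the NOZ means ran against transcript GC content (Spearman correlation over genes -0.495), and in NOZ replicates 1 and 3 they ran with it (0.313 and 0.364). The GC content of the longest transcript was 40.6% for B2M and between 54.8% and 62.7% for HLA-B, HLA-C, HLA-E, NLRC5 and TAP1. It was 57.6% for TAPBP, 57.7% for HLA-F and 49.1% for TAP2. The part of GC content in the place of this library was not tested. Without NOZ replicate 2 all 9 genes were still called higher.

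The transactivator gene NLRC5 (chromosome 16, 56989557 to 57083520) rose like the other members. The 3 NOZ libraries held 20.2, 16.9 and 18.0 CPM and the 3 NOZ-R libraries 65.5, 62.0 and 55.6 CPM. The lowest NOZ-R library was 2.75 times the highest NOZ library. NLRC5 rose by 1.73 in log2 units, with an SE of 0.0912 (adjusted p = 2.41e-09 by edgeR). NLRC5 was among the low transcripts per unit length, at 1.55 ± 0.138 FPKM (counts scaled to library size and gene length) in the parent and 4.71 ± 0.403 FPKM in NOZ-R (n = 3 each, SD).

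Of the peptide pump genes, TAP1 rose more than TAP2. TAP1 (chromosome 6, 32845209 to 32853704) had 23.1, 16.4 and 18.9 CPM in NOZ libraries and 109, 115 and 117 CPM in NOZ-R libraries. The lines stood further apart than for any other of the 9 genes, the lowest NOZ-R library being 4.72 times the highest NOZ library. TAP1 rose by 2.54 in log2 units, with an SE of 0.101 (adjusted p = 1.33e-10 by edgeR). TAP2 (chromosome 6, 32821831 to 32838739) had 37.3, 42.4 and 42.9 CPM in NOZ libraries and 87.8, 79.3 and 86.7 CPM in NOZ-R libraries, without overlap. Its rise of 1.05 in log2 units, with an SE of 0.0751 (adjusted p = 4.93e-08 by edgeR), did not pass the test against a 2-fold change (adjusted p = 0.701). TAPBP (chromosome 6, 33299694 to 33314078), which encodes tapasin, had 49.5, 52.1 and 48.8 CPM in NOZ libraries and 104, 99.2 and 105 CPM in NOZ-R libraries. Both lines were tight and separate, and TAPBP rose by 1.04 in log2 units with an SE of 0.0629 (adjusted p = 9.61e-09 by edgeR). It did not pass the test against a 2-fold change either (adjusted p = 0.826).

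Set side by side per unit length, in FPKM with the deposited lengths, the order of the levels was the same at the top in both lines and changed in the middle. In NOZ the order ran from B2M (243 FPKM ± 13.3) over HLA-C (71.2 ± 7.35), HLA-E (47.5 ± 3.92), TAPBP (7.89 ± 0.291), HLA-B (7.28 ± 0.260), TAP1 (4.30 ± 0.735), TAP2 (4.12 ± 0.319) and NLRC5 to HLA-F (0.264 ± 0.0334, n = 3 each, SD). TAP1 and TAP2 overlapped in NOZ, and the other neighbours in this order did not overlap. In NOZ-R the order was B2M (349 FPKM ± 10.9), HLA-C (158.0 ± 5.93), HLA-E (119 ± 2.25), HLA-B (27.3 ± 1.42), TAP1 (23.0 ± 0.749), TAPBP (14.8 ± 0.479), TAP2 (7.81 ± 0.449), NLRC5 and HLA-F (1.29 ± 0.270, n = 3 each, SD). No neighbours overlapped there, and TAP1 stood above TAPBP. Among all tested genes ranked by FPKM, TAP1 moved from place 6947 to 1694 and HLA-B from 5125 to 1408, while B2M moved from 93 to 58. The lengths behind FPKM are those of the deposited table, 10357 bases for TAP2, 4738 for TAP1, 4623 for HLA-B and 6648 for TAPBP. The joined exons of these genes in the GENCODE 29 annotation measure 6390, 4805, 3051 and 5056 bases in that order. With those lengths TAP2 would stand above TAP1 in NOZ, and the NOZ mean of HLA-B above that of TAPBP. A level per length depends on the lengths used, and a fold change between lines does not.

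Ratios within a library show how unequal the rises were. TAP1 over TAP2 was 1.35, 0.848 and 0.965 in NOZ and 2.72, 3.16 and 2.96 in NOZ-R. The FPKM of TAPBP over that of TAP1 plus TAP2 was 0.877, 1.04 and 0.903 in NOZ and 0.498, 0.469 and 0.476 in NOZ-R. For both ratios every NOZ-R library lay outside the range of NOZ. The summed FPKM of HLA-B, HLA-C, HLA-E and HLA-F was 126 ± 11.4 in NOZ and 305 ± 8.35 in NOZ-R, and its ratio to B2M was 0.522 ± 0.0725 and 0.874 ± 0.0104 (n = 3 each, SD). Within this sum the share of HLA-B went from 5.79% ± 0.412 to 8.94% ± 0.257 and that of HLA-F from 0.211% ± 0.0348 to 0.420% ± 0.0787, while that of HLA-C went from 56.4% ± 0.868 to 51.8% ± 0.850 (n = 3 each, SD). The share of HLA-E, 37.6% ± 0.441 in NOZ and 38.9% ± 0.843 in NOZ-R (n = 3 each, SD), overlapped between the lines (exact permutation test, two-sided, p = 0.2). The other 6 of the 7 ratios and shares did not overlap and had p = 0.1 in the same exact permutation test, 0.117 after adjustment over the 7, and 0.1 is the smallest p that 3 against 3 libraries allow. With counts in place of FPKM all 7 kept their direction. TAP1 over TAP2 by counts was 0.483 ± 0.121 in NOZ and 1.35 ± 0.101 in NOZ-R (n = 3 each, SD), so its level depends on the lengths used.

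**Figure D3:**
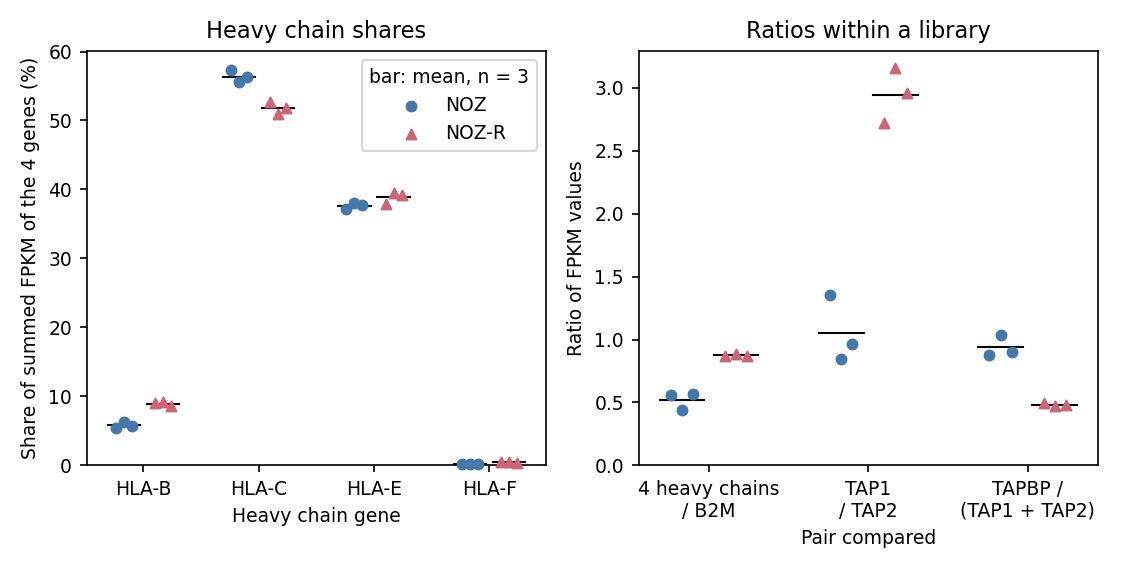
Left, share of each of the 4 heavy chain genes in their summed FPKM, in percent; right, FPKM ratios between members, for each NOZ (circles) and NOZ-R (triangles) library with bars at the means of 3. The TAP1 over TAP2 ratio lies between 0.848 and 1.35 in NOZ and between 2.72 and 3.16 in NOZ-R, and the HLA-E share overlaps between the lines.

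Heavy chain genes resemble each other, so the uniqueness of the transcripts was measured in the GENCODE 29 annotation of GRCh38. Of the 100-base words in the transcripts of HLA-B, HLA-C, HLA-E and HLA-F, between 0% and 0.491% also occurred in a transcript of another gene, and of the 50-base words between 0.977% and 5.38%. TAP2 shared 30.3% of its 100-base words with transcripts of other genes. It shares 2064 exon bases with AL669918.1, an annotated protein-coding gene model on its own strand. Exons of HLA-F overlap those of HLA-F-AS1 on the opposite strand by 535 bases and exons of TAP1 overlap those of PSMB8-AS1 by 456 bases, and HLA-B shares 35 exon bases with HLA-C in that annotation. Pseudogenes on the opposite strand overlap exons of HLA-B by 542 bases and exons of HLA-F by 701 bases (AL645939.1) and 257 bases (RPL23AP1). The counting rule is not given in the sources used here, so reads from these stretches may be assigned to either gene. These figures describe the reference alleles, and the alleles of NOZ were not examined. Of 13 class I pseudogenes, 12 were in the table and 2 had enough counts to be tested. HLA-K rose by 0.80 in log2 units (adjusted p = 0.00126 by edgeR), with 48 to 85 counts in NOZ and 87 to 115 in NOZ-R, and HLA-H did not pass (log2 fold change 0.41).

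Of the 9 genes, 7 lie on chromosome 6, whose tested genes had a median log2 fold change of 0.33, and B2M and NLRC5 lie on chromosomes 15 and 16 with medians of 0.04 and 0.21. Of the 102 other tested genes that start between HLA-F and TAPBP (chromosome 6, 29722775 to 33314387), 53 were higher (52.0%) and 3 were lower. Of these 102 genes, 13 (12.7%) were called at least 2-fold higher, and the rises were uneven along the interval. In gene order, the other genes next to TAP2 and TAP1 had log2 fold changes of 2.55 and 4.18 before TAP2. They had 1.32, 1.07 and 2.01 between TAP2 and TAP1, and 2.04, 1.44, 0.63, 4.08 and 1.71 after TAP1. The values 1.32 and 2.01 are those of PSMB8 and PSMB9, which are given again with the immunoproteasome. The 102 genes also include MICA, MICB, HLA-H and HLA-K, so they are not all unrelated to class I. On the rest of chromosome 6, 303 of 599 tested genes were higher (50.6%) and 78 lower, and 16.9% were at least 2-fold higher. Relative to the median of its chromosome, TAP1 stood at 2.21, HLA-F at 2.09, HLA-B at 1.70, NLRC5 at 1.51, HLA-E at 1.12, HLA-C at 0.95, TAP2 at 0.72, TAPBP at 0.70 and B2M at 0.61 on the log2 scale. All 9 remained above 0. Whether the number of copies of chromosome 6 takes part in these values was not tested.

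**Figure D4:**
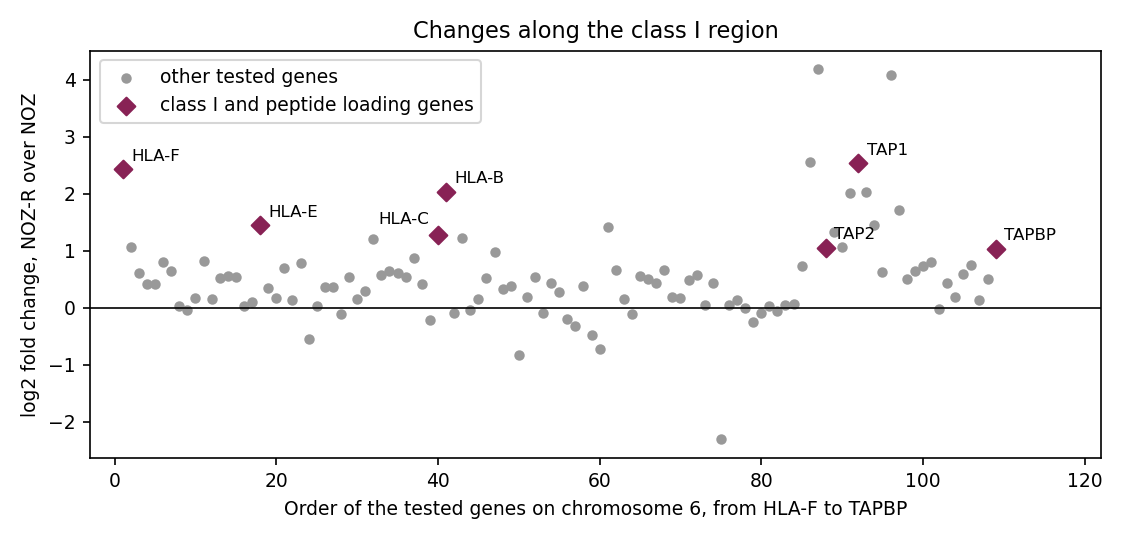
Log2 fold change of NOZ-R over NOZ for the tested genes from HLA-F to TAPBP in their order on chromosome 6, with the class I and peptide loading genes as diamonds and the 102 other genes as grey points. The other genes have a median of 0.42, and the 7 diamonds lie between 1.04 and 2.54. Other genes next to TAP2 and TAP1 reach up to 4.18.

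The immunoproteasome, which cuts peptides suited to class I molecules, changed in the same direction. All 5 tested genes of this list were higher, as were 30.4% of all tested genes. The median log2 fold change of the 5 was 1.32. PSMB9, which shares its promoter region with TAP1, rose by 2.01 ± 0.112 in log2 units, PSMB10 by 1.78 ± 0.163 and PSMB8 by 1.32 ± 0.0736 (SE, adjusted p = 4.15e-09, 5.65e-07 and 4.15e-09 by edgeR). The proteasome activator genes PSME1 and PSME2 rose by 0.47 each. Of the constitutive catalytic subunits that these 3 replace, PSMB6 rose by 0.70, PSMB7 fell by 0.35 and PSMB5 did not pass (log2 fold change 0.03, adjusted p = 0.788 by edgeR).

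In the endoplasmic reticulum list of chaperones, peptide editors and peptidases, 10 of 12 tested genes were higher and 1, TPP2, was lower. The median log2 fold change of the 12 was 0.63. Of all tested genes 30.4% were higher and 29.8% were lower. The partners of tapasin in the loading complex, the lectin chaperone CALR and the oxidoreductase PDIA3, rose by less than TAP1. They rose by 0.71 ± 0.0537 and 0.75 ± 0.0509 in log2 units (SE, adjusted p = 8.85e-08 and 2.80e-08 by edgeR). A further lectin chaperone, CANX, rose by 0.46 ± 0.0488 (SE, adjusted p = 2.21e-06 by edgeR). TAPBPL, a tapasin-related peptide editor, rose by 0.82. The aminopeptidases that trim peptides for class I, ERAP1 and ERAP2, rose by 1.15 and 0.95. HSPA5, the general chaperone BiP, rose by 1.10. TPP2, a cytosolic peptidase, fell by 0.81, from 151 to 86.3 CPM, and THOP1 did not pass (log2 fold change -0.09).

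Increases were called for 8 of 17 tested genes for factors that act on class I promoters, and decreases for 3. The shares among all tested genes were 30.4% for increases and 29.8% for decreases. For the remaining 6 of the 17 no change was called. The median log2 fold change of the 17 was 0.18. STAT2, an interferon signal transducer, rose by 2.01 in log2 units, with an SE of 0.0655 (adjusted p = 1.89e-11 by edgeR). IRF1 and IRF9 rose by 1.06 each, IRF9 from a mean of 1.72 CPM. NFKB1 rose by 0.50, while RELA did not pass (log2 fold change 0.09). The factors that hold NLRC5 on the promoter went different ways. RFX5 rose by 0.27 and NFYC by 0.56, whereas RFXAP fell by 1.01, from 14.7 to 7.27 CPM, and RFXANK fell by 0.26. EZH2, a histone methyltransferase known to silence class I genes in some tumours, fell by 0.66 with an SE of 0.0602 (adjusted p = 5.82e-07 by edgeR), and its partners EED (log2 fold change 0.18) and SUZ12 (-0.01) did not pass.

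**Figure D5:**
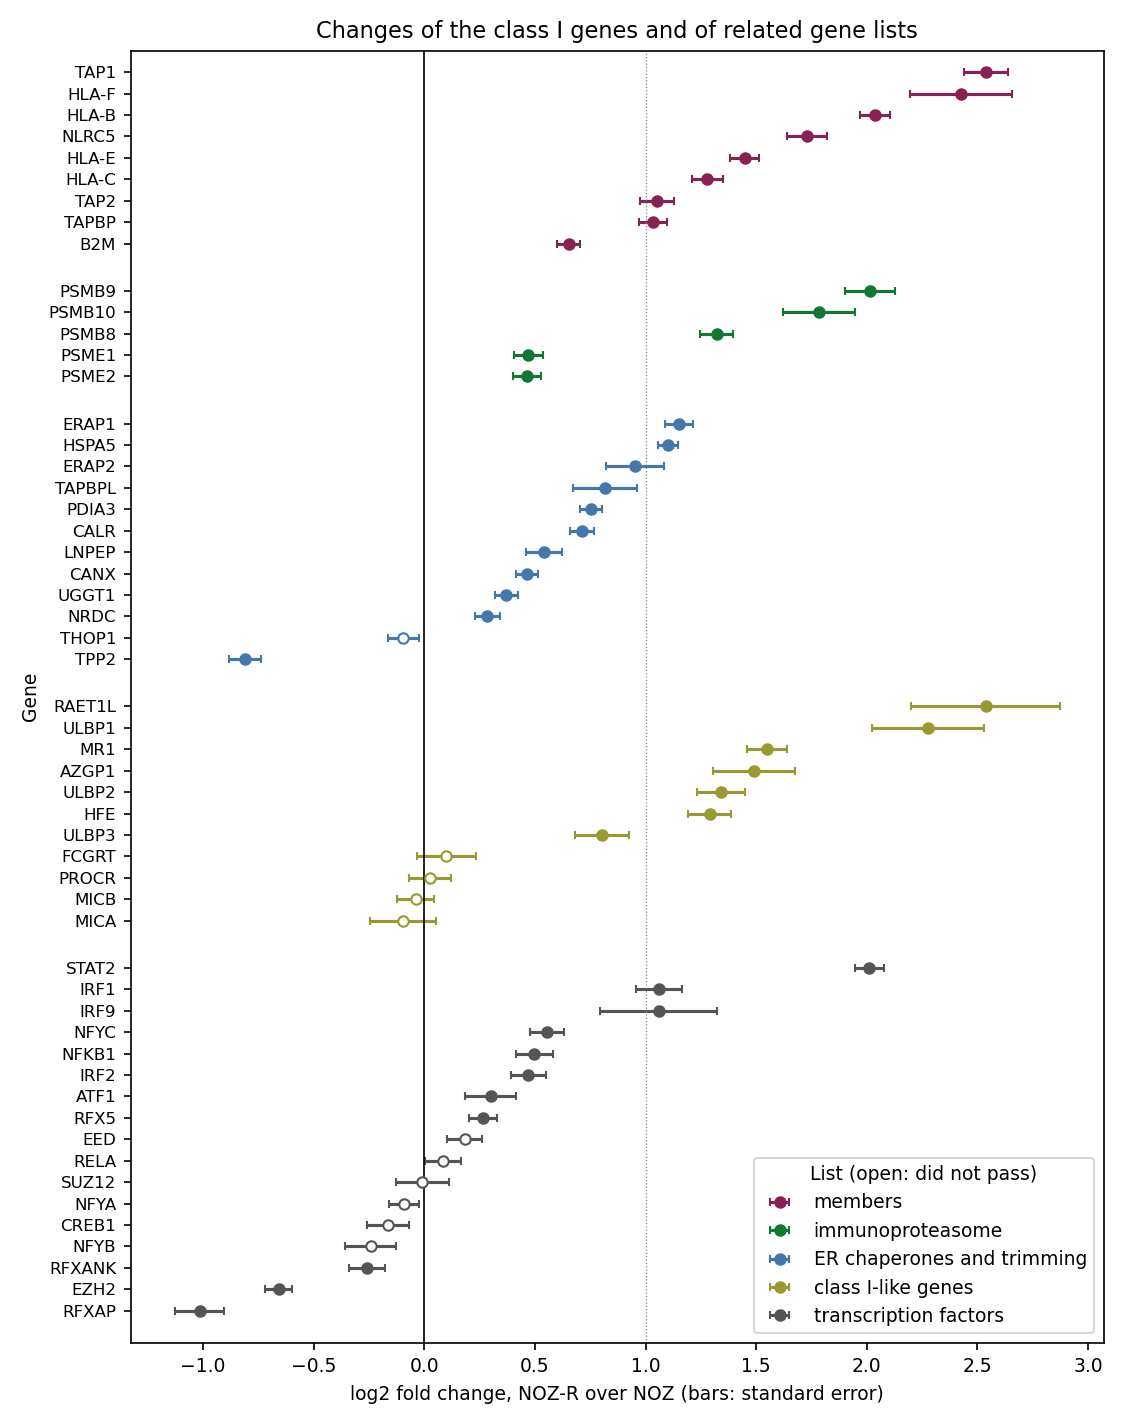
Log2 fold change of NOZ-R over NOZ with its standard error for the 9 members and 4 related lists, filled where the edgeR test passed and open where it did not. All 9 members and all 5 immunoproteasome genes lie right of 0, while the transcription factors spread from -1.01 (RFXAP) to 2.01 (STAT2).

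Class I-like genes outside peptide presentation were split. Of 11 tested genes 7 were higher, as were 30.4% of all tested genes, 4 did not pass and 0 were lower. The median log2 fold change of the 11 was 1.29. MR1, which presents small metabolites to T cells, rose by 1.55 ± 0.0898 and HFE, the class I-like regulator of iron uptake, by 1.29 ± 0.0977 in log2 units (SE, adjusted p = 6.19e-09 and 9.07e-08 by edgeR). The NKG2D ligands ULBP1, ULBP2 and ULBP3 rose by 2.28, 1.34 and 0.81, and RAET1L rose by 2.54 from 4 to 12 counts per NOZ library. The stress ligands MICA (log2 fold change -0.09) and MICB (-0.04), which lie within the class I region, did not pass, nor did FCGRT (0.10) and PROCR (0.03). HLA-G had 1 count over the 6 libraries and CD1D had 1.

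Markers of other cells with high class I were measured beside these results. Of 10 leukocyte markers 5 had enough counts to be tested, and 3 of them were higher and 1 was lower. Among all tested genes 30.4% were higher and 29.8% were lower. CD74, which tumour cells with class II genes also make, rose by 1.77 in log2 units, from a mean of 71.4 to 244 CPM. The myeloid markers CSF1R and LYZ rose by 1.85 and 1.49 (adjusted p = 0.000369 and 0.00411 by edgeR), from 0.505 to 1.85 CPM and from 0.407 to 1.13 CPM. The B cell marker CD79A fell by 1.74, from 7.30 to 2.20 CPM, and CD14 did not pass (log2 fold change 0.16). The summed level of the 10 was 74.4 to 89.9 CPM in the parent and 245 to 265 CPM in NOZ-R. Without CD74 the sum was 8.68 to 15.6 CPM in the parent and 8.83 to 9.58 CPM in NOZ-R, with members that moved in opposite directions. Among the untested markers PTPRC, the pan-leukocyte marker CD45, had 28, 14 and 7 counts over the NOZ libraries and 4, 2 and 5 over those of NOZ-R. ITGAM had 0, 1 and 1 counts and then 8, 7 and 2, and NKG7 had 0 counts in every NOZ-R library.

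The 4 endothelial markers summed to 2.38 to 2.69 CPM in the parent and 9.05 to 10.1 CPM in NOZ-R, mostly PECAM1. PECAM1 rose by 2.29 in log2 units (adjusted p = 3.01e-08 by edgeR). CDH5, which had too few counts to be tested, had 13, 8 and 8 counts over the NOZ libraries and 7, 11 and 2 over those of NOZ-R. VWF and KDR had 2 counts or fewer in every library. The 6 fibroblast markers summed to 2.74 to 3.32 CPM in the parent and 3.09 to 4.22 CPM in NOZ-R. DCN had 0, 0 and 0 counts over the NOZ libraries and 19, 12 and 6 over those of NOZ-R, and LUM had 0, 0 and 0 against 5, 6 and 14, while COL1A1 did not pass (log2 fold change -0.54). The 5 epithelial markers summed to 2287 to 2765 CPM in the parent and 3221 to 3316 CPM in NOZ-R. Of these KRT7 rose most, from 389 to 822 CPM, KRT18 rose by 0.64 and KRT8 by 0.25 in log2 units, and KRT19 did not pass (log2 fold change -0.06). EPCAM, an epithelial adhesion molecule, fell by 0.56 (adjusted p = 0.000149 by edgeR), from 72.9 to 49.4 CPM. The part of these markers in the class I results was not tested.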

How the data were processed

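RNA-seq libraries of poly-A RNA, 3 of NOZ and 3 of NOZ-R, were grouped by their titles. The authors deposited raw counts per gene and FPKM values for 63140 genes. The submitters' processing notes name fastp 0.22.0 and the build GRCh38. Aligner, counter, strand setting and annotation were not given in the sources used here. The deposited FPKM equal counts over the total count and 1 fixed length per gene, with a largest relative spread of 9.25e-15 in that length, so they carry no composition correction.

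Counts were filtered with filterByExpr, scaled with TMM factors (0.954 to 1.05) and tested with edgeR 4.0.16 in R 4.3.3 by the quasi-likelihood test, adjusted over all 14386 tested genes at 0.05. CPM use the scaled library sizes. The SE is the log2 fold change over the square root of F. Positions, GC content (found for 96.6% of tested genes) and transcripts came from GENCODE 29, gene ends and promoters from RefSeq (GRCh38.p14), which may not be the authors' release. Promoters were aligned with Biopython 1.88. Replicates were not duplicates, with a mean chi-square per gene of 2.16 to 11.2, where sampling noise alone gives about 1. The fit was checked on simulated counts, with 3 draws of 200 changed genes over 14386, and recovered 89.7% of log2 changes of 1 on average. The draws changed far fewer genes than the 60.2% called in the data, in equal numbers up and down. They therefore do not check the TMM scaling under changes as wide as these.

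The members and the 12 other lists (106 genes, 80 tested) were chosen with earlier results of these data known. A further gene of the transcription factor list is not reported here and is in none of the list counts. The 9 members are always named. Of the immunoproteasome, endoplasmic reticulum, class I-like and transcription factor lists any tested gene may be named, any leukocyte marker may be, and of the other lists up to 2 called increases and 2 called decreases. PSMB5, HLA-H, HLA-G, CD1D, SOCS1, CDH5, VWF, KDR, DCN, LUM, COL1A1, KRT8 and KRT19 are exceptions to that rule, chosen with their values known. Alternatives were DESeq2 size factors, library size only, no filter, the Wald test of DESeq2 1.42.0, limma 3.58.1 on log2 FPKM with 1 or 0.1 added, a block on the replicate number, chromosome medians removed, GC correction (loess, span 0.3) and leaving out each library.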

Additional observations from a re-analysis of the deposited data

How the results depend on the processing

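All 9 genes stayed higher, at an adjusted p under 0.05, in each of the 14 alternative settings that give a test. Removing chromosome medians gives values without a test, so it gives no counts of calls. The pseudocount of 1 FPKM lowered HLA-F to 0.85, a value more than 1.5 times smaller than that of the count test, and NLRC5 to 1.16. Over the 6 fits that each leave out 1 library, the log2 fold change of TAP1 lay between 2.42 and 2.69 and that of HLA-F between 2.32 and 2.59, and no member lost its call. Where leaving out 1 library left 2 in a line, the test pools the spread of both lines. Over the 12 other lists 47 genes were higher and 10 lower. Scaling by library size alone gave 18 lower and GC correction gave 16 lower, and the counts of higher genes lay between 39 and 48 in all settings. Scaling by library size alone also moved the median of all tested genes to -0.14 and gave 3318 higher and 5465 lower genes, against 4379 and 4284. The 7 ratios and shares kept their direction in all 49 recomputed values. With the replicate number as a block all 9 members were called, as were 46 higher and 9 lower genes of the other lists. The deviations of same-numbered libraries correlated between -0.0365 and 0.0682, and 2 of 6 libraries correlated best with their own number. Random matching would give as many, so this does not show whether same-numbered libraries shared a culture or a preparation. Low counts limit HLA-F, the pseudogenes and the leukocyte markers, and intervals were not given for them.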

Other observations

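Genes that act before and after class I loading were measured as well. Of 9 tested genes of interferon receptor signalling, 4 were higher and 2 were lower, against 30.4% and 29.8% of all tested genes. The median log2 fold change of the 9 was 0.14. IFNGR1, the ligand-binding chain of the interferon gamma receptor, had 19.6 ± 2.80 CPM in the parent and 67.9 ± 2.59 CPM in the resistant line (n = 3 each, SD). It rose by 1.80 in log2 units, with an SE of 0.0949 (adjusted p = 2.34e-09 by edgeR). JAK2, the kinase bound to the other chain of that receptor, fell by 1.25 with an SE of 0.134 (adjusted p = 2.64e-06 by edgeR), its mean going from 40.9 to 17.3 CPM. SOCS1, a feedback inhibitor of these kinases that was named after its values were seen, had 3, 1 and 0 counts over the NOZ libraries and 19, 2 and 6 over the NOZ-R libraries and was not among the tested genes.

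Of 8 genes linked to the removal of class I molecules from the cell surface or the endoplasmic reticulum, 4 rose, 1 fell and 3 did not pass. Over all tested genes 30.4% rose and 29.8% fell. The membrane ubiquitin ligase gene MARCHF4 rose by 2.24 in log2 units, with an SE of 0.188 (adjusted p = 2.47e-07 by edgeR), its mean going from 2.36 to 11.3 CPM, while its relative MARCHF9 fell by 0.44 (adjusted p = 0.00596 by edgeR). TMEM127 rose by 0.25.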
